A study of Mus musculus with 6 samples.

Results

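Chemokine ligand genes were measured by 42 probe sets of 32 genes, among 22626 probe sets and 12393 singly annotated genes, on microarrays of mouse mammary tumours. A gene was taken as a member when its probe set was annotated to a single symbol of the Ccl, Cxcl, Cx3cl1 or Xcl1 type. The members comprised 18 CC ligands, 12 CXC ligands, Cx3cl1 and Xcl1. The tumours came from adult female F1 mice of 2 outcrosses to a PyMT parent, the other parent being AKR/J in 3 samples (AKR F1) and DBA/2J in 3 samples (DBA F1). All 6 snap-frozen tumours thus shared PyMT (polyomavirus middle T, a viral oncoprotein that drives mammary tumours in mice), and no treatment of the living animals beyond anaesthesia was named. The labels name neither the promoter of the transgene nor the strain of the PyMT parent. Each sample title carries its own number, but the labels do not say that these numbers are separate animals. A p-value thus measures only how these samples vary. The comparison asks which transcripts differed at baseline between tumours of the 2 genotypes.

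Chemokines are small secreted proteins that bind G protein-coupled receptors on leukocytes and other cells and direct their migration along a gradient. They are named for the spacing of their first cysteines (CC, CXC, CX3C or XC). Inflammatory chemokines are induced by cytokines through NF-kB and interferon-activated factors, whereas homeostatic chemokines position cells in resting tissue. In mammary tumours they are made by tumour cells, fibroblasts, macrophages and endothelium and recruit macrophages, neutrophils and lymphocytes.

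No chemokine ligand differed between the crosses at an adjusted p of 0.05 by limma, in 0 of 42 probe sets, beside 0.0972% of all probe sets (0.0354% higher in AKR F1 and 0.0619% higher in DBA F1 tumours). At an unadjusted limma p under 0.05 there were 9 of 42 probe sets (21.4%), beside 26.1% of all. The largest differences were higher levels in DBA F1 tumours of Cxcl12, a homeostatic chemokine of stromal cells (2.39-fold), and of Cxcl1, a neutrophil attractant (2.34-fold). Of the 32 genes, each taken at its brightest probe set, 17 lay higher in AKR F1 tumours (53.1%, beside 54.8% of all genes) and 15 lower. The median of the log2 differences, AKR minus DBA, was 0.06, against 0.05 over all genes. Counted by gene, 7 of 32 had an unadjusted limma p under 0.05 (21.9%, beside 25.2% of all genes), 2 higher in AKR F1 and 5 higher in DBA F1 tumours, beside 12.6% of all genes in either direction. The 3 values of each cross did not overlap in 14 ligand genes, or 43.8%, beside 38.4% of all genes. Of these, 7 were higher in AKR F1 tumours (background 23.2%) and 7 in DBA F1 tumours (background 15.2%). By probe set, 15 of 42 did not overlap (35.7%, beside 39.2% of all). These shares lay near the background, and the counts are given as a description of the family.

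Promoters are shown for 7 of the 14 ligands with non-overlapping crosses, 5 higher in DBA F1 tumours (Cxcl1, Cxcl2, Cxcl10, Cxcl12 and Ccl12) and 2 higher in AKR F1 tumours (Ccl1 and Ccl22). Cxcl15 and Cxcl9, whose crosses overlapped, stand beside them as neighbours on chromosome 5. The letters hold or lack matches to motifs of inflammatory induction. The reference sequences are RefSeq's for GRCm38.p6. The promoter set used here held 22 of the 32 genes. Each stretch covers the 230 bases before the gene's start, 5′ to 3′ on the gene's strand. Capitals mark matches to the NF-kB consensus (GGG, a purine, any 2 bases, 2 pyrimidines and CC). The leftmost capitals of Cxcl10 match the core of the interferon-stimulated response element, taken as GAAA, any 2 bases and GAAA.
Cxcl1, chr5:90891015-90891244, + strand: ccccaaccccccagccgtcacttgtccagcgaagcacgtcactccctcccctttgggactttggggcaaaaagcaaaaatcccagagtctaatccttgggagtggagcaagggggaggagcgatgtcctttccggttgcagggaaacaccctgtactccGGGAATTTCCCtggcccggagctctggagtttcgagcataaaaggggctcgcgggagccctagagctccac
Cxcl2, chr5:90903669-90903898, + strand: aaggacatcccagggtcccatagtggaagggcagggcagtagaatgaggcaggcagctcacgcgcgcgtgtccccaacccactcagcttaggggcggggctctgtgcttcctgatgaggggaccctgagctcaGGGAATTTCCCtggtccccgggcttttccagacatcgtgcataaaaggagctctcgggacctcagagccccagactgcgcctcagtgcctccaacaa
Cxcl15, chr5:90794304-90794533, + strand: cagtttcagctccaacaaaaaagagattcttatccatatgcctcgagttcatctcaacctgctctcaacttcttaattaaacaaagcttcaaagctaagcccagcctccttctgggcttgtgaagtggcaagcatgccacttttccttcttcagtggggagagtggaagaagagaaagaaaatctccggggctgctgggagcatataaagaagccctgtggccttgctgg
Cxcl10, chr5:92348890-92349119, - strand: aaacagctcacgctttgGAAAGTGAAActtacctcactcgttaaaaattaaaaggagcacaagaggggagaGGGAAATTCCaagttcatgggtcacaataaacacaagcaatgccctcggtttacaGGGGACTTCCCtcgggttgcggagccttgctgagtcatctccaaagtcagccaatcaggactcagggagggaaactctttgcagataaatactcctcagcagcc
Cxcl9, chr5:92328080-92328309, - strand: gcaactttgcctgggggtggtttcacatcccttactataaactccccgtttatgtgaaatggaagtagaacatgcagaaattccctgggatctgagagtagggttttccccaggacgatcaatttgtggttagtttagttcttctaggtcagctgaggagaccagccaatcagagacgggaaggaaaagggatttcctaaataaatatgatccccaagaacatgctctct
Cxcl12, chr6:117168305-117168534, + strand: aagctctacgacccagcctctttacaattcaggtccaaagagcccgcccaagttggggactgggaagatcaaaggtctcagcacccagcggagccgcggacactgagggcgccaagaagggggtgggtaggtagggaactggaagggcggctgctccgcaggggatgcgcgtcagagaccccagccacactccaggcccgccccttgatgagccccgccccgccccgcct
Ccl12, chr11:82101615-82101844, + strand: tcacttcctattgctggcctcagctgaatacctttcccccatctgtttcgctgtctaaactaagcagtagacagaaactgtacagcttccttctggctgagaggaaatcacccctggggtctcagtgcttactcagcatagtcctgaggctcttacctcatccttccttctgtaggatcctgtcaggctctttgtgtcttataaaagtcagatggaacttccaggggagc
Ccl1, chr11:82179813-82180042, - strand: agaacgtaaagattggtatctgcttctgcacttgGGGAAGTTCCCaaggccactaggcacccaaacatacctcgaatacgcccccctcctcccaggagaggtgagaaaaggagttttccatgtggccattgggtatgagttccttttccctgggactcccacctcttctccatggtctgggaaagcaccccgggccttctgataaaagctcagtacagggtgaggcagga
Ccl22, chr8:94745454-94745683, + strand: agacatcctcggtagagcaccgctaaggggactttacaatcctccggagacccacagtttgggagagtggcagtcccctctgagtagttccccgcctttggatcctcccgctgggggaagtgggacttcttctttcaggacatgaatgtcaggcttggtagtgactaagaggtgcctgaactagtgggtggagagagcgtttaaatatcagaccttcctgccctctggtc

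Both strands were searched over 300 bases, from 250 before to 50 after the start, and overlapping matches were joined. The NF-kB consensus was found in 7 of the 22 ligand genes (31.8%), beside 9.55% of all 27025 genes in the table. The interferon-stimulated response element core was found in 2 of the 22 (9.09%), Cxcl10 and Cxcl14, beside 3.99% of all genes. The neighbours Cxcl1 and Cxcl2 carried the same letters, GGGAATTTCCC, beginning 71 bases before the start in Cxcl1 and 97 bases before it in Cxcl2. Cxcl10 held GGGAAATTCC and GGGGACTTCCC. The remaining genes with an NF-kB match were Ccl1, Ccl9, Ccl20 and Ccl27a, in the last of these after the start. The genes with a match went in both directions: log2 differences were -1.23 for Cxcl1, -0.59 for Cxcl10, -0.56 for Ccl9, -0.27 for Cxcl2 and -0.18 for Ccl27a, but 0.17 for Ccl20 and 0.48 for Ccl1. A match is a description of these reference letters and not evidence of binding, and the lack of a match is not evidence against it.

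As deposited, the 6-array mean of a ligand's brightest probe set ran from 4.47 for Cxcl5 to 9.67 for Ccl8 on the log2 scale. Most ligands were dim: 20 of 32 lay below the median of all probe sets, and 12 above it. Of all 12393 genes, also taken at their brightest probe set, 5134 lay below that median. Probe sets bind with unequal strength, so these places describe the signal and not an order of RNA amounts between genes. The brightest were Ccl8, at percentile 85 of all probe sets, Cx3cl1 (77), Cxcl16 (76), Cxcl12 (75), Cxcl17 (74), Ccl6 (70) and Ccl9 (68), and the dimmest were Cxcl5 (3) and Cxcl2 (11). Without detection calls in use here, a dim value can lie at background and its difference can be compressed.

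**Figure D1:**
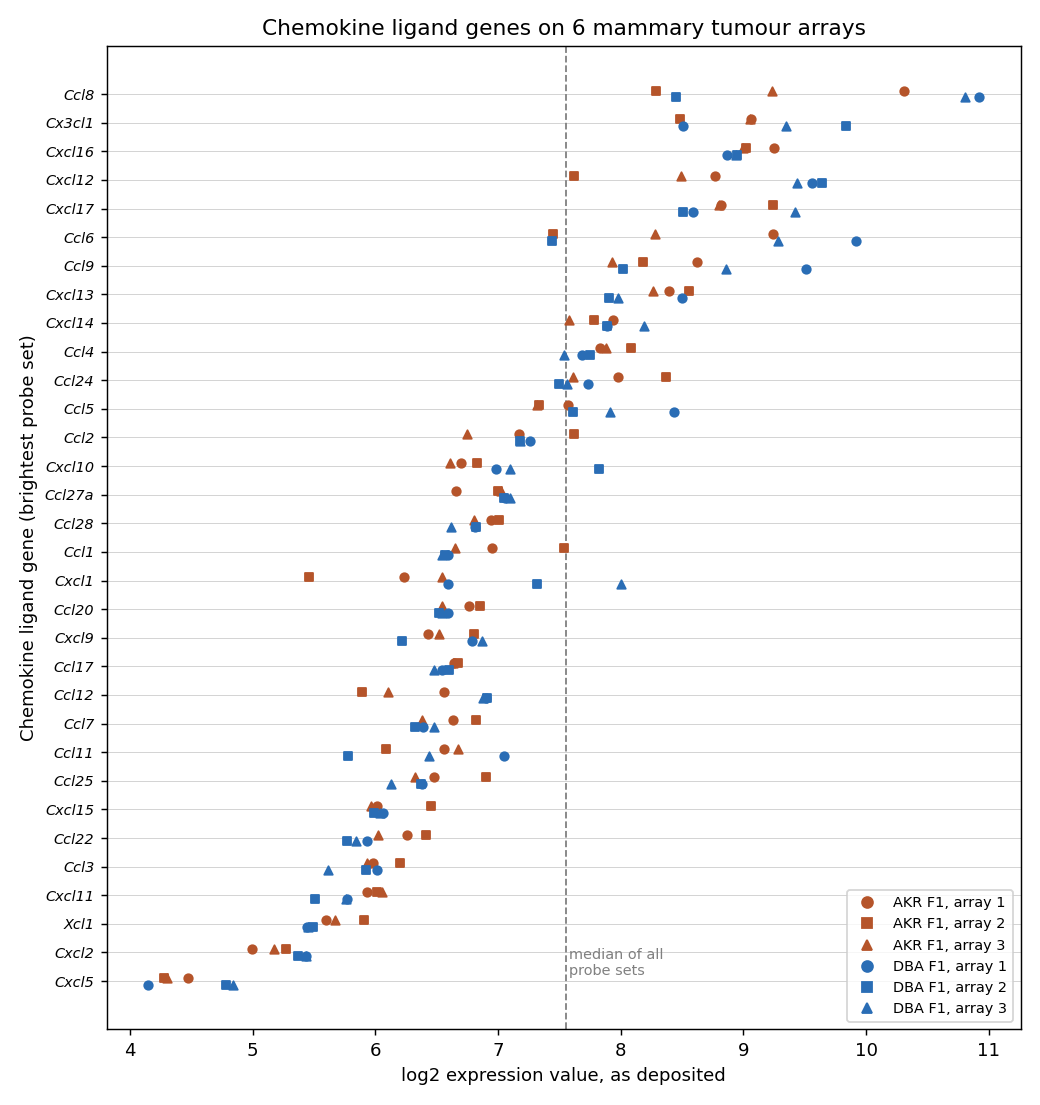
Log2 expression value as deposited (horizontal) of the brightest probe set of each of the 32 chemokine ligand genes (vertical, ordered by 6-array mean). Each symbol is 1 array, with colour for the cross and shape for the array number; the dashed line is the median array median. Ccl8, Cxcl1 and Ccl6 had the widest ranges over the 6 arrays (2.63, 2.54 and 2.48) and Ccl17 the narrowest (0.19).

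Array medians of all probe sets ran from 7.52 to 7.57, but the spread of values differed, with an SD of 1.76 on AKR F1 array 2 and 1.90 to 2.02 on the others. On AKR F1 array 2 dim genes read high: 2965 of 5134 genes below the median level were highest there (57.8%), and so were 11 of the 20 dim ligands (55%). DBA F1 array 3, with the widest spread (SD 2.02), was the lowest array for 2429 of these 5134 genes (47.3%). It was the lowest for 5 of the 20 dim ligands (25%) and for 29.7% of all genes. Among genes below the median level, 3970 of 5134 lay higher in AKR F1 tumours, as did 12 of the 20 dim ligands. Bright genes went the other way: 4442 of 7259 genes above the median level lay lower in AKR F1 tumours, as did 7 of the 12 ligands there. AKR F1 array 2 was the lowest array for 35% of all genes, beside 13.4% of genes below the median level. Markers of other tissues stood apart on single arrays. The summed level of 4 salivary gland markers, as log2 of their added linear values, was 14.22 on AKR F1 array 2 and at most 10.88 elsewhere. That of 2 measured adipocyte markers was 12.24 on DBA F1 array 1 and at most 9.22 elsewhere, and that of 5 skeletal muscle markers was highest there too (14.49). Without AKR F1 array 2, 15 of 32 ligands lay higher in AKR F1 tumours instead of 17. Cxcl15, a dim ligand, turned to -0.04, and Cxcl17, above the median level, turned to -0.03. The other dim ligands kept their sign, which was fixed for the 10 whose crosses did not overlap. The part of AKR F1 array 2 in the size of their differences was not tested. In whole tumours, fewer cells of a type and less RNA per cell cannot be told apart, nor can a strain's sequence variant under a probe set and a difference in RNA level.

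Among the ligands of the receptor CXCR3, which interferons induce and which attract activated T and NK cells, the 3 members did not move together. Cxcl10 read 6.70, 6.83 and 6.61 on the AKR F1 arrays and 6.98, 7.82 and 7.10 on the DBA F1 arrays. The crosses did not overlap, and DBA F1 array 2 stood well above the rest. The difference in Cxcl10 was -0.59 (SE 0.229, 95% interval -1.13 to -0.04; limma adjusted p = 0.178), and without DBA F1 array 2 it was -0.33. Cxcl9 read 6.43, 6.80 and 6.52 in AKR F1 and 6.79, 6.22 and 6.87 in DBA F1 tumours, fully overlapping (-0.04, 95% interval -0.53 to 0.44). Cxcl11 lay the other way, at 6.0 ± 0.06 against 5.68 ± 0.15 (AKR F1 and DBA F1; SD, n = 3 each), without overlap (limma adjusted p = 0.177). Its dimmer probe set, at percentile 1, differed by 0.06. The interferon-induced transcription factor gene Irf7 read 8.79, 9.18 and 8.75 in AKR F1 and 9.59, 10.77 and 9.93 in DBA F1 tumours, also highest on DBA F1 array 2, and did not pass (-1.19, limma adjusted p = 0.111).

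The neutrophil-attracting CXC ligands bind CXCR2 and were all below the median level. Cxcl1, the most studied of them in mouse, read 6.23, 5.46 and 6.54 on the AKR F1 arrays and 6.59, 7.32 and 8.0 on the DBA F1 arrays. The crosses were separated by a narrow gap, between AKR F1 array 3 and DBA F1 array 1, while DBA F1 array 3 stood highest. Mean values of Cxcl1 were 6.07 ± 0.55 and 7.30 ± 0.71 (SD, n = 3 each), a difference of -1.23 (95% interval -2.20 to -0.25; limma adjusted p = 0.146). Cxcl2, the neighbour with the same NF-kB letters, read 4.99, 5.27 and 5.17 in AKR F1 and 5.43, 5.37 and 5.43 in DBA F1 tumours. All 3 DBA values of Cxcl2 lay above all AKR values, but by little, and the difference of -0.27 did not pass (limma adjusted p = 0.209). Cxcl5 (-0.24) overlapped, with DBA F1 array 1 lowest at 4.15. Cxcl15, known from lung epithelium and without a match to the NF-kB consensus, differed by 0.11. The receptor gene Cxcr2 lay the other way, at 6.99 in AKR F1 and 6.43 in DBA F1 tumours (0.56, limma adjusted p = 0.138). Beside these, the summed level of 8 neutrophil markers ran from 12.33 to 13.34 in AKR F1 and 12.07 to 13.17 in DBA F1 tumours. That sum is mostly Ltf, which mammary epithelium also makes. Of the 8 markers, 6 lay higher in AKR F1 tumours, with Mmp8, Mpo and Elane not overlapping. S100a8 (-0.38) and S100a9 (-1.28, limma adjusted p = 0.107) lay higher in DBA F1 tumours, the latter without overlap. The part of these markers in the Cxcl1 values was not tested.

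**Figure D2:**
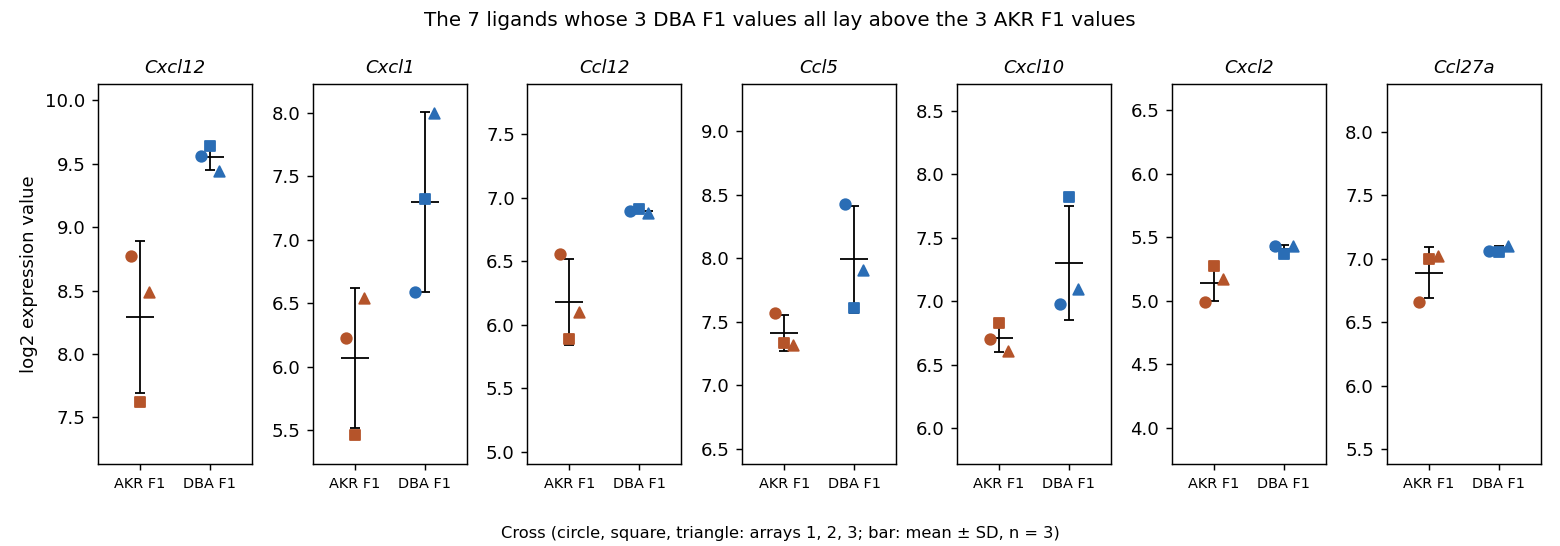
Log2 expression value (vertical, the same span of 3 units in each panel) by cross for the 7 ligands whose DBA F1 values all lay above the AKR F1 values; symbols are single arrays and black bars the mean ± SD, n = 3. Cxcl12 and Ccl12 were tight among DBA F1 arrays (SD 0.10 and 0.02), while Cxcl1 spread in both crosses and Ccl27a and Cxcl2 were separated only narrowly.

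The inflammatory CC ligands attract monocytes, macrophages and lymphocytes, and 6 of the 9 members lay higher in DBA F1 tumours (median -0.56), none of them past the test. Ccl12, a CCR2 ligand of monocytes, read 6.56, 5.89 and 6.10 on the AKR F1 arrays and 6.90, 6.91 and 6.88 on the DBA F1 arrays. The DBA F1 values of Ccl12 were nearly equal and lay above every AKR F1 value. The difference was -0.71 (SE 0.183, 95% interval -1.15 to -0.28; limma adjusted p = 0.11). Ccl5, or RANTES, a chemokine made by T cells, NK cells and macrophages, read 7.57, 7.33 and 7.32 in AKR F1 and 8.43, 7.61 and 7.91 in DBA F1 tumours. These values did not overlap, though DBA F1 array 2 lay just above AKR F1 array 1, and the difference was -0.58 (limma adjusted p = 0.171). Without DBA F1 array 1, the highest, Ccl5 differed by -0.36.

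Ccl8, Ccl6 and Ccl9 varied more between tumours of the same cross than between the crosses. Ccl8, a monocyte attractant, read 10.31, 8.29 and 9.23 on the AKR F1 arrays and 10.92, 8.45 and 10.81 on the DBA F1 arrays. It was low on array 2 of each cross and high on DBA F1 arrays 1 and 3 and AKR F1 array 1. The crosses overlapped, though DBA F1 arrays 1 and 3 lay above every AKR F1 value. Ccl6, a myeloid chemokine gene of rodents, read 9.24, 7.45 and 8.28 in AKR F1 and 9.92, 7.44 and 9.28 in DBA F1 tumours, with the same arrays high and low. Ccl9, its neighbour, read 8.62, 8.18 and 7.93 in AKR F1 and 9.51, 8.02 and 8.86 in DBA F1 tumours, with the same 3 arrays highest but AKR F1 array 3 lowest. The within-cross SD was 1.22 for Ccl8, 1.11 for Ccl6 and 0.58 for Ccl9, at percentiles 99, 99 and 95 of all genes.

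The differences of these 3 genes did not exceed that spread. They were -0.78 for Ccl8 (95% interval -2.61 to 1.04; limma adjusted p = 0.492), -0.56 for Ccl6 (-2.22 to 1.10; 0.589) and -0.56 for Ccl9 (-1.45 to 0.34; 0.34). They depended on single arrays: without DBA F1 array 2 Ccl8 differed by -1.59 and Ccl6 by -1.28, whereas without AKR F1 array 2 they differed by -0.29 and -0.12, and without DBA F1 array 1 by -0.35 and -0.04. Ccl9 differed by -0.20 without DBA F1 array 1 and by -0.95 without DBA F1 array 2. Without AKR F1 array 2 and DBA F1 array 1 together, chosen after seeing the data, Ccl8 and Ccl6 turned, to 0.14 and 0.40. Further probe sets of Ccl6 and Ccl9 differed by -0.04 and -0.83 and, like the brightest, were highest on DBA F1 array 1. Markers of macrophages and fibroblasts were also lowest on array 2 of each cross, and AKR F1 array 2 was the lowest array for 35% of all genes. The summed level of 7 of 8 macrophage markers was 12.87, 12.03 and 12.73 in AKR F1 and 12.78, 12.34 and 12.86 in DBA F1 tumours, with Mrc1 the dimmest of them. That of 5 fibroblast markers was 13.89, 12.69 and 13.84 in AKR F1 and 14.01, 11.34 and 13.56 in DBA F1 tumours. The part of either cell type in the Ccl8, Ccl6 and Ccl9 values was not tested.

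**Figure D3:**
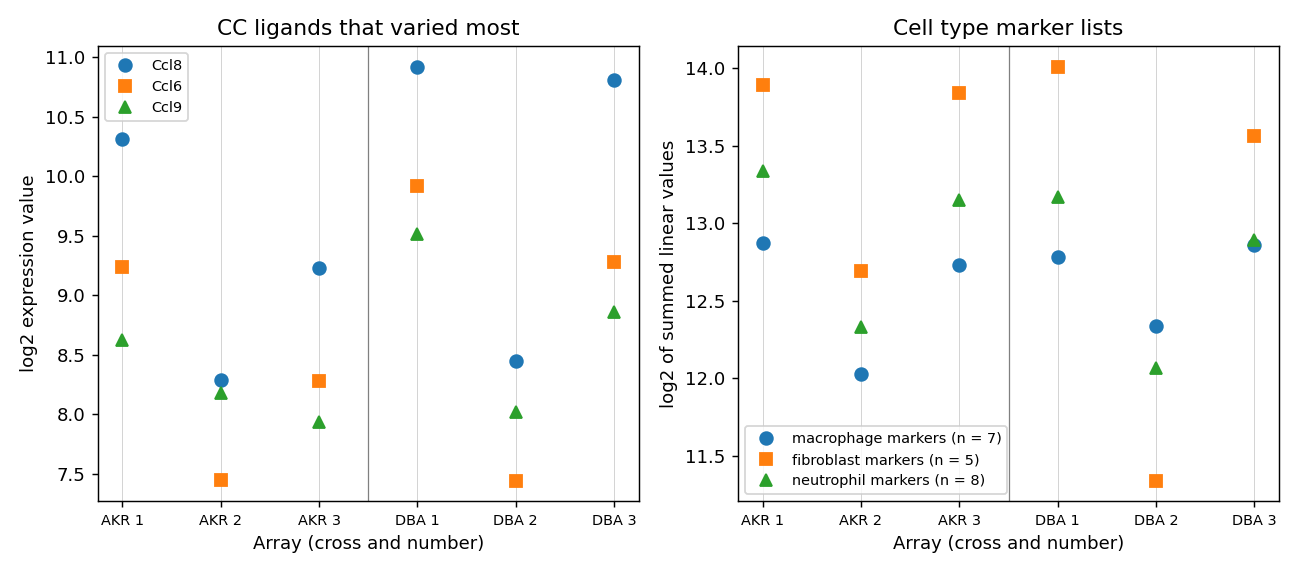
Left, log2 expression value of Ccl8, Ccl6 and Ccl9 on each array; right, log2 of the summed linear values of macrophage, fibroblast and neutrophil marker lists (n is the number of measured markers) on the same arrays, AKR F1 left and DBA F1 right of the grey line. Ccl8 and Ccl6 and the sums of all 3 marker lists were lowest on array 2 of each cross. The neutrophil sum is mostly Ltf, and the mean log2 value of that list was 8.05, 8.03 and 7.96 on the AKR F1 arrays. Camp, Elane, Mmp8, Mpo and Ngp were highest on AKR F1 array 2, whereas Ltf and S100a8 were the lowest there among AKR F1 arrays.

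The other inflammatory CC ligands differed little. Ccl2, the main monocyte attractant, read 7.17, 7.62 and 6.75 in AKR F1 and 7.26, 7.18 and 7.18 in DBA F1 tumours. Its AKR F1 values enclosed those of the DBA F1 arrays, and the difference was -0.02 (95% interval -0.55 to 0.50). Ccl7, from the same gene cluster as Ccl2, differed by 0.21 and the macrophage product Ccl3 by 0.19, both overlapping, and without AKR F1 array 2 each differed by 0.11. Ccl4, a close relative of Ccl3, lay higher on all AKR F1 arrays, at 7.93 ± 0.13 against 7.66 ± 0.11 (SD, n = 3 each; 0.27, limma adjusted p = 0.218). Ccl12 and Ccl5 on the one side and Ccl4 on the other thus lay in opposite directions, although all 3 genes are on chromosome 11, where 6 of 12 ligand genes lay higher in AKR F1 tumours and 6 lay lower.

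All 5 measured ligands linked to eosinophils, type 2 T cells and dendritic cells lay higher in AKR F1 tumours, by 0.02 to 0.48, and none passed. Ccl22, a CCR4 ligand typical of dendritic cells and macrophages, read 6.26, 6.41 and 6.02 in AKR F1 and 5.93, 5.77 and 5.84 in DBA F1 tumours. The values did not overlap (0.38, 95% interval 0.05 to 0.71; limma adjusted p = 0.162). Ccl17, which shares CCR4 with Ccl22, had the narrowest range of all ligands, 0.19 over the 6 arrays, and differed by 0.11, or by -0.03 after quantile normalization. Ccl1, a CCR8 ligand of activated T cells, read 6.95, 7.54 and 6.65 in AKR F1 and 6.59, 6.57 and 6.54 in DBA F1 tumours. It was highest on AKR F1 array 2 and did not overlap between crosses (0.48, limma adjusted p = 0.217), and without that array the difference was 0.24. The eosinophil attractants Ccl24 (0.39, or 0.19 without AKR F1 array 2) and Ccl11 (0.02) overlapped, and Ccl11 turned direction to -0.14 after quantile normalization. Of these 5 ligands 4 lay below the median level, where most genes lay higher in AKR F1 tumours. The summed level of 9 T and NK cell markers ran from 10.73 to 11.06 in AKR F1 and from 10.41 to 10.67 in DBA F1 tumours, with 7 of 9 higher in AKR F1 tumours and Cd8b1 the dimmest, and its part was not tested.

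Of the 3 homeostatic ligands measured, from 7 listed, Cxcl12 had the smallest p of the family. Cxcl12, the CXCR4 ligand of fibroblasts and endothelium that retains leukocytes and progenitors in tissue, read 8.77, 7.62 and 8.49 on the AKR F1 arrays and 9.56, 9.64 and 9.44 on the DBA F1 arrays. The DBA F1 values of Cxcl12 were close together and above all AKR F1 values, of which array 2 was lowest. Means were 8.29 ± 0.60 and 9.55 ± 0.10 (SD, n = 3 each), a difference of -1.25 (SE 0.286, 95% interval -1.93 to -0.57; limma adjusted p = 0.0992), and without AKR F1 array 2 it was -0.92. A dimmer Cxcl12 probe set read 7.48, 7.29 and 7.55 in AKR F1 and 8.22, 7.27 and 7.68 in DBA F1 tumours. At that probe set the crosses overlapped (-0.28, limma adjusted p = 0.432), so the difference rests on 1 of 2 probe sets. DBA F1 array 2, with the lowest fibroblast marker sum, had the highest value at the brightest Cxcl12 probe set and the lowest at the other. The receptor genes Cxcr4 (-0.17) and Ackr3, which scavenges Cxcl12 (-0.51), overlapped between crosses and did not pass (limma adjusted p = 0.611 and 0.267).

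Cxcl13, the B cell attractant of lymphoid follicles, read 8.39, 8.56 and 8.26 in AKR F1 and 8.5, 7.90 and 7.98 in DBA F1 tumours at its brightest probe set (0.28). Its dimmer probe set lay the other way (-0.59), with DBA F1 array 1 at 7.79 and all others between 5.90 and 6.35. The summed level of 4 lymph node markers was 11.46, 8.89 and 8.58 in AKR F1 and 10.46, 7.90 and 7.94 in DBA F1 tumours. The sums on AKR F1 array 1 and DBA F1 array 1 were mostly Glycam1 (11.33 and 10.21), so they describe that gene more than the list. Madcam1, Cr2 and Cd40 were highest on AKR F1 array 2. That of 5 of 6 B and plasma cell markers ran from 8.38 to 8.55 in AKR F1 and from 9.64 to 10.38 in DBA F1 tumours. The mean log2 value of these markers was highest on DBA F1 array 1 (7.37). The top sum, on DBA F1 array 2, was mostly Pou2af1 (10.09), while Cd79a, Cd79b, Ms4a1 and Jchain read 5.61 to 6.22 there. Between the crosses 4 of the 5 markers lay lower in AKR F1 tumours, and Cd79a lay higher (0.39). The part of either marker list in the Cxcl13 values was not tested. Cxcl14, a chemokine of epithelium and fibroblasts, differed by -0.22 and, at its dimmer probe set, by -0.68 (6.34 ± 0.35 against 7.03 ± 0.51; SD, n = 3 each), overlapping at both. Neither gene passed at any probe set.

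The epithelial and mucosal ligands differed by -0.18 to 0.27, and none had an unadjusted limma p under 0.05. Cxcl17, a mucosal chemokine and the brightest of them, read 8.82, 9.24 and 8.80 in AKR F1 and 8.59, 8.51 and 9.42 in DBA F1 tumours. DBA F1 array 3 was the highest and DBA F1 array 2 the lowest of the 6, so the difference of 0.12 lay within the spread, and without AKR F1 array 2, DBA F1 array 1 or DBA F1 array 2 it was -0.03, -0.01 or -0.05. Ccl28, which mammary epithelium makes in lactation to attract antibody-secreting cells, differed by 0.17 (95% interval -0.12 to 0.46), and its second probe set, at percentile 6, by 0.02. The CCR6 ligand Ccl20 (0.17) and Ccl25 (0.27), known for homing to the gut, overlapped, and without AKR F1 array 2 each differed by 0.10. Ccl27a, a skin chemokine, read 6.66, 7.0 and 7.02 in AKR F1 and 7.06, 7.05 and 7.10 in DBA F1 tumours (-0.18, or -0.06 without AKR F1 array 1). Its values did not overlap, but AKR F1 array 3 and DBA F1 array 2 were nearly equal, and its near-identical copies make the probe set's target uncertain.

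Cx3cl1 and Cxcl16 are the chemokines made as membrane-anchored proteins with a mucin-like stalk, and both were among the brightest ligands. The brightest Cx3cl1 probe set read 9.06, 8.48 and 9.05 in AKR F1 and 8.51, 9.84 and 9.35 in DBA F1 tumours, overlapping (-0.37, or -0.07 without DBA F1 array 2; limma adjusted p = 0.473). A further Cx3cl1 probe set read 9.35, 8.74 and 9.0 in AKR F1 and 7.94, 8.98 and 7.93 in DBA F1 tumours, a difference of 0.75 (limma adjusted p = 0.191). The dimmest Cx3cl1 probe set did not overlap, at 6.29 ± 0.03 against 5.94 ± 0.06 (SD, n = 3 each; 0.36, limma adjusted p = 0.127). The 3 Cx3cl1 probe sets thus disagreed in direction, and no direction can be given for the gene. Cxcl16 was steady, at 9.25, 9.02 and 9.0 in AKR F1 and 8.87, 8.95 and 8.94 in DBA F1 tumours, not overlapping by a narrow gap (0.17), and its second probe set lay the other way (-0.37). Of 9 ligand genes with more than 1 probe set, 3 had probe sets of opposite sign, namely Cx3cl1, Cxcl13 and Cxcl16. Xcl1, made by T and NK cells and sensed by cross-presenting dendritic cells, had means of 5.73 ± 0.16 and 5.46 ± 0.03 (AKR F1 and DBA F1; SD, n = 3 each; 0.27, limma adjusted p = 0.216), without overlap.

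**Figure D4:**
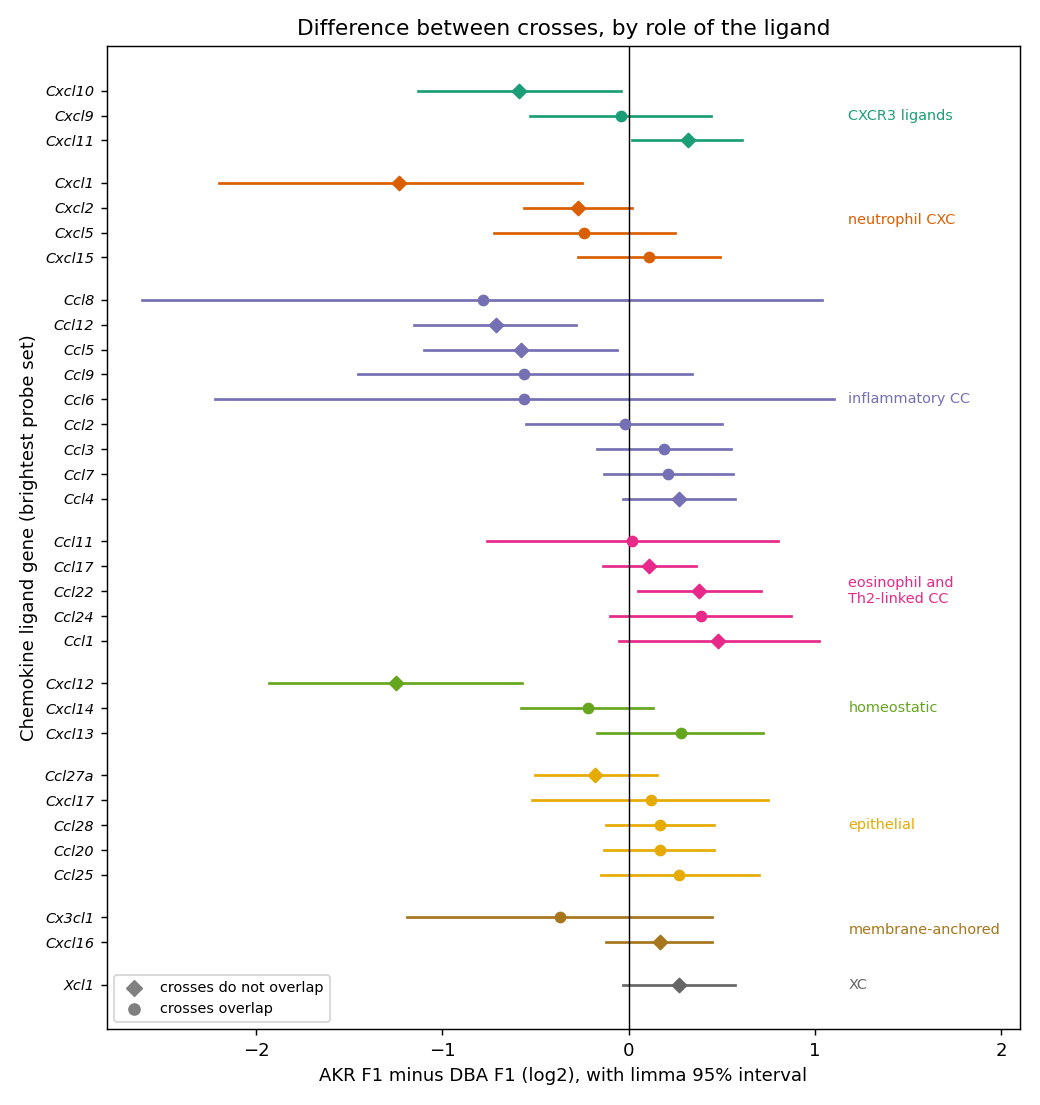
Log2 difference of AKR F1 minus DBA F1 (horizontal, negative is higher in DBA F1 tumours) of each ligand gene's brightest probe set, grouped by role; lines are limma's 95% intervals and diamonds mark genes whose crosses did not overlap. Cxcl12 and Cxcl1 lie farthest to the left, at -1.25 and -1.23, and the widest intervals belong to Ccl8 and Ccl6.

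Of the chemokine receptor genes, 16 of 18 listed were measured, each taken at its brightest probe set. Of these, 14 lay higher in AKR F1 tumours, beside 54.8% of all genes. By limma 0 passed, beside 0.0565% of all genes, and 2 of 16 (12.5%) had an unadjusted p under 0.05, beside 25.2% of all genes. The smallest p values belonged to Cxcr2 (0.56), Cxcr3 (0.27, limma adjusted p = 0.18), Ccr4, the receptor of Ccl17 and Ccl22 (0.28, limma adjusted p = 0.194), and Ccr8, the receptor of Ccl1 (0.44, limma adjusted p = 0.218). Cxcr3 read 6.77, 6.67 and 6.79 in AKR F1 and 6.52, 6.45 and 6.44 in DBA F1 tumours, without overlap and opposite in direction to Cxcl10. Of the 16 receptor genes 13 lay below the median level of all probe sets, where 3970 of 5134 genes lay higher in AKR F1 tumours. Of 5 atypical receptors, which bind chemokines without classical signalling, 0 passed by limma, and 2 (40%) had an unadjusted p under 0.05, beside 25.2% of all genes. Ackr2, a scavenger of CC ligands, differed by 0.43, Ackr4 by 0.31 and Ccrl2, which presents chemerin, by -0.34 (limma adjusted p = 0.174, 0.213 and 0.156).

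Among 17 measured inducers and regulators, each taken at its brightest probe set, 12 lay higher in AKR F1 tumours, beside 54.8% of all genes. Their median difference was 0.02. By limma 0 passed, and 3 (17.6%) had an unadjusted p under 0.05, beside 25.2% of all genes. Those with the smallest p were Irf7, the lymphotoxin gene Lta (0.69), the NF-kB subunit gene Nfkb2 (0.48) and Il1b, an inducer of Cxcl1 (-0.49; limma adjusted p = 0.126, 0.128 and 0.204 for the last 3). Il1b read 7.72, 7.92 and 7.45 in AKR F1 and 8.20, 7.81 and 8.53 in DBA F1 tumours, highest on DBA F1 array 3 like Cxcl1, and overlapped between crosses. Ifng, the inducer of Cxcl9, was at 5.04 and 5.0, near the bottom of the range. Dimmer probe sets of 2 NF-kB regulator genes disagreed with the brightest. Nfkbiz differed by 0.01 at its brightest and by -0.98 at the other, without overlap (limma adjusted p = 0.142). Nfkbia differed by -0.13 at its brightest and by -0.82, -0.39 and 0.36 at the others (limma adjusted p = 0.143, 0.346 and 0.186). The platelet chemokine genes Pf4 (-0.35) and Ppbp (-0.26), whose symbols are not of the Ccl or Cxcl type, did not pass either (limma adjusted p = 0.176 and 0.337).

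The count of called ligands depended on how arrays were weighted. With limma's array weights, 12 ligand genes passed, 6 in each direction, but 9969 of 22626 probe sets did so too, and the estimation of those weights did not converge: it gave AKR F1 array 1 a weight of 38.2 and AKR F1 array 2 one of 0.123. With weights from the gene-by-gene method, added after seeing the data, 3712 probe sets passed, among them 2 ligand genes at their brightest probe set, Cxcl12 (-0.88, limma adjusted p = 0.0221) and Cxcl2 (-0.36, limma adjusted p = 0.0472). In each setting that left out 1 array, and without AKR F1 array 2 and DBA F1 array 1 together, 0 ligand genes passed by limma. The difference in Cxcl12 was then -1.49 to -0.92 over the 6 single omissions. That in Cxcl1 was -1.59 to -0.88 and that in Ccl12 -0.90 to -0.57. Because the crosses of these 3 genes did not overlap, leaving out arrays could change the size but not the direction.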

How the data were processed

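The authors deposited log2 values for 22690 probe sets on 6 Affymetrix arrays, 1 per tumour; the log2 scale was read from the values. RNA was extracted with Trizol and labelled with biotin, per the labels' protocols. Per the submitters' processing notes, the tools were MAS5 and RMA, without a version; the sources used here do not say which made the values. The 64 control probe sets were left out, leaving 22626. The platform annotation paired 20380 probe sets with 1 symbol, 691 with several and 1555 with none. Each gene was taken at the probe set with the highest 6-array mean.

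A two-sided limma fit (version 3.58.1, R 4.3.3) by lmFit and eBayes compared the crosses. Benjamini-Hochberg adjustment ran over the 22626 probe sets, with a threshold of 0.05, and intervals are 95%. The fit was tested on simulated data. Samples were grouped by source name, and array numbers follow accession order. The rule named every member with all its probe sets, and of each pathway list the 4 genes with the smallest p. Members and lists were chosen with earlier results of these data known. Alternatives were quantile normalization, median centring, only probe sets above the median level, 1 mean value per gene, array weights, a prior fitted with trend and robustly, adjusted p 0.10 and each array left out. Figures used matplotlib 3.10.9 in Python 3.11.15.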

Additional observations from a re-analysis of the deposited data

How the results depend on the processing

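With 3 arrays per cross, precision is limited, and dim probe sets can lie at background. No paired analysis was possible because the labels give no replicate numbers that could pair AKR with DBA samples. The number of all probe sets called was 22 as deposited, 36 after quantile normalization, 102 among probe sets above the median level, 810 at adjusted p 0.10, 9969 with array weights, 3712 with gene-by-gene array weights, 657 without AKR array 2 and DBA array 1 together (the last 2 alternatives were added after seeing the data), and 1 to 263 with single arrays left out. Ligand probe sets called were 15 with array weights, 4 with gene-by-gene weights and 1 at adjusted p 0.10; ligand genes called were 12, 2 and 1, the last being Cxcl12; receptor genes called were 7 and 3 with the 2 kinds of weights. The other settings called 0 ligands and 0 receptors by limma. Among probe sets above the median level, 12 ligand genes were left, of which 5 lay higher and 7 lower in AKR F1 tumours. Their median was -0.30, and 4 (33.3%) were without overlap. Of all 7259 genes above that level, 4442 lay lower in AKR F1 tumours and 35.6% were without overlap, with a median of -0.12. The median of the ligand genes was -0.05 after quantile normalization and -0.09 with gene-by-gene weights; over all genes it was 0.07 after quantile normalization.

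Of 32 ligand genes, 21 kept 1 sign under every alternative run for them, and 11 turned under at least 1. For the 14 genes whose crosses did not overlap, leaving out arrays could not turn the sign. After quantile normalization the differences were -0.14 for Ccl11, -0.03 for Ccl17 and -0.05 for Cxcl15. With array weights they were 0.14 for Ccl6, -0.02 for Cxcl15 and -0.17 for Cxcl17, and with gene-by-gene weights -0.02 for Cxcl15 and -0.19 for Cxcl17. As 1 mean value per gene they were 0.25 for Cx3cl1, -0.16 for Cxcl13 and -0.10 for Cxcl16, whose probe sets disagree. Without AKR array 2 and DBA array 1 together they were 0.40 for Ccl6, 0.14 for Ccl8, -0.03 for Cxcl15 and -0.15 for Cxcl17. With single arrays left out, Ccl11 ran from -0.30 to 0.33, Ccl2 from -0.25 to 0.19, Cxcl15 from -0.04 to 0.20, Cxcl17 from -0.05 to 0.41 and Cxcl9 from -0.25 to 0.08. Except where named above, the cause was not tested.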

Other observations

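A further 4 probe sets were annotated to several genes each, namely to copies of Ccl19, Ccl21 or Ccl27, and were not among the members; Ccl27a was a member through another probe set of its own. Ccl19 and Ccl21 are ligands of CCR7 and guide T cells and dendritic cells into lymphoid tissue. The probe set of the Ccl21 copies read 7.60, 7.30 and 6.98 in AKR F1 and 8.05, 6.87 and 8.06 in DBA F1 tumours, overlapping (-0.37, limma adjusted p = 0.474). Like Ccl8, it was highest on DBA F1 arrays 1 and 3. The probe set of Ccl19 and its copies read 7.50, 7.84 and 7.38 in AKR F1 and 7.98, 7.28 and 7.07 in DBA F1 tumours (0.14, limma adjusted p = 0.728). Those of the Ccl27 copies differed by -0.27 and 0.00. By limma 0 of these 4 probe sets passed, and the lowest of their unadjusted p values was 0.234. The receptor gene Ccr7 differed by 0.06.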
